A study of Mus musculus with 14 samples.

Results

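The 10 genes described here mark endothelium, the cell layer that lines blood and lymph vessels: Pecam1, Cdh5, Cd34, Emcn, Robo4, Kdr, Flt1, Tek, Tie1 and Eng. They were chosen by symbol in the array's probe annotation, and all 10 were found, each with 1 probe, among 16877 genes tested. They were followed over 12 mammary tumours of mice with the genotype Brg1+/-, a genotype that all tumours share; the labels also carry the word MIXED, which they do not explain. Brg1 is the product of Smarca4 and the ATPase that drives the SWI/SNF chromatin remodelling complex. No other genotype and no normal gland was compared here, so the comparisons are those between tumours, named T135, T160, T172, T176, T2023, T2134, T221, T284, T372, T55, T646 and T920.

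Each of 14 two-colour arrays held tumour RNA in Cy5 and a mouse reference RNA in Cy3. A value is the log2 ratio of tumour over reference, so that 0 means the level of the reference RNA and 1 unit is a factor of 2. For 10 tumours there was 1 array each. T172 and T284 were each hybridised on 2, the second being labelled as a biorep. Values of T172 and T284 below are the means of 2 arrays unless an array is named. A ratio compares 1 gene between tumours, and ratios of different genes do not rank their abundance. In a piece of tumour, fewer endothelial cells and less RNA per endothelial cell cannot be told apart.

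Endothelial cells are held together by the adhesion proteins VE-cadherin (Cdh5) and CD31 (Pecam1), and carry sialomucins such as CD34 and endomucin (Emcn) on the surface that faces the blood. Vessel growth is driven by vascular endothelial growth factor A (Vegfa), which signals through the receptor tyrosine kinase VEGFR2 (Kdr) and is bound by VEGFR1 (Flt1). Vessel stability depends on the angiopoietin receptor Tie2 (Tek) and its partner Tie1, while endoglin (Eng) is a co-receptor for BMP and TGF-beta ligands and Robo4 is an endothelial member of the Roundabout receptors. Several of these genes are not limited to endothelium: Cd34 is also made by stromal and blood progenitor cells, Pecam1 by platelets and leukocytes, and Eng by macrophages and stromal cells.

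Arrays carried values for 22501 to 22566 of 22575 probes, with medians from 0 to 0.018. Smarca4, averaged over 2 probes, ranged from -1.08 to 0.07 and was below the reference in 11 of 12 tumours, with no difference called between tumours (limma adjusted p = 0.359). Of the epithelial markers, Epcam, Krt8 and Krt18 were lowest in T176, at -4.09, -3.53 and -4.25, and their medians over tumours were 2.24, 2.08 and 2.57. Krt5 and Krt14 were not, at -1.665 and 0.78 in T176 against medians of -1.43 and 0.53. With each gene's mean over tumours removed, the second arrays of T172 and T284 correlated with each other at r = 0.616 over 16535 genes, nearly as high as the 2 arrays of T172 (0.709) and of T284 (0.703). These genes are not independent replicates. Most of the 10 endothelial genes were also lower on the second arrays, but not all. Of the 10 genes, 7 were lower on the second array than on the first for T172 and 8 for T284. Of all genes, 52.98% were lower for T172 and 54.99% for T284. The median differences were -0.30 and -0.39 for the 10 genes, against -0.034 and -0.063 for all genes. The largest rises among the 10 were 0.794 for Flt1 in T172 and 0.639 for Cd34 in T284. Of the 10, 6 were lower in both tumours. Of all genes with both differences, 34.4% were lower in both. The labels do not say what was repeated for the second arrays or whether the tumours came from separate animals, so p-values apply to these samples only. Those of the F-test between tumours set the spread over tumours against that between the 2 arrays of T172 and of T284.

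Promoter sequence is shown for Cd34, Emcn and Robo4, the 3 genes called between tumours (below). It comes from RefSeq (GRCm38.p6), on the strand of the gene, and starts 150 bases before the start site of the promoter table. That site is the outermost end of the annotated gene for Cd34, but lies 16 bases inside the gene for Emcn and 70 for Robo4, so their sequences stop at the gene's end, after 134 and 80 bases. Capitals mark GGAA or its reverse complement TTCC, the core of sites for ETS transcription factors, and the stretch of Robo4 holds neither.
Cd34, chr1:194938671-194938820, plus strand: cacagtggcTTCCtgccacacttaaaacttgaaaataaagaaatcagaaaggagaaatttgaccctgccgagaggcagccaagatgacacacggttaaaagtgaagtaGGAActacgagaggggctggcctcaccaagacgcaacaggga
Emcn, chr3:137340928-137341061, plus strand: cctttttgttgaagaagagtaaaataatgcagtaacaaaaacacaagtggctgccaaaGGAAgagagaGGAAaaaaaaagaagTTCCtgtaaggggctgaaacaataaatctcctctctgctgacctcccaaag
Robo4, chr9:37401822-37401901, plus strand: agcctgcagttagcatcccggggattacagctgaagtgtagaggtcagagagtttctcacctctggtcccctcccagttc

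In the 250 bases before the table's start site, GGAA was counted on both strands in the 8 of the 10 genes with an entry in the promoter table (Pecam1 and Cdh5 have none). For 5 of the 8 (Emcn, Robo4, Kdr, Flt1 and Tek) that site lies inside the annotated gene, so part of the window may be transcribed from another start. All 8 held it, as did 93.4% of 32851 promoter windows of the same length. The counts were 5 in Cd34, 4 in Emcn, 3 in Robo4 and 4 in Flt1, against a median of 3 over all windows. Of the others, Kdr had 4, Tek 2, Eng 3 and Tie1 7, and 3.82% of all windows held at least as many as Tie1. TATAAA, searched on both strands, was found in 1 of the 8, Flt1, and in 12.4% of all windows. These matches describe the letters in the window and do not show binding.

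The sialomucin genes Cd34 and Emcn and the receptor gene Robo4 varied more from tumour to tumour than between repeat arrays. These 3 of 10 were called by limma's F-test with moderated variances (adjusted p under 0.05, the threshold for every call here), beside 18.3% of the 16877 genes. Only T172 and T284, with 2 arrays each, inform the spread within a tumour in that test. At a threshold of 0.01, 1 of the 10 was called, Cd34, beside 9.35% of all genes. At an unadjusted p under 0.05, 5 of the 10 passed, beside 30.3% of all genes, the further 2 being Flt1 and Eng. The median SD over tumours was 0.58 for the 10 genes and 0.39 for all genes, and the moderated SD within a tumour had medians of 0.32 and 0.31.

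**Figure D1:**
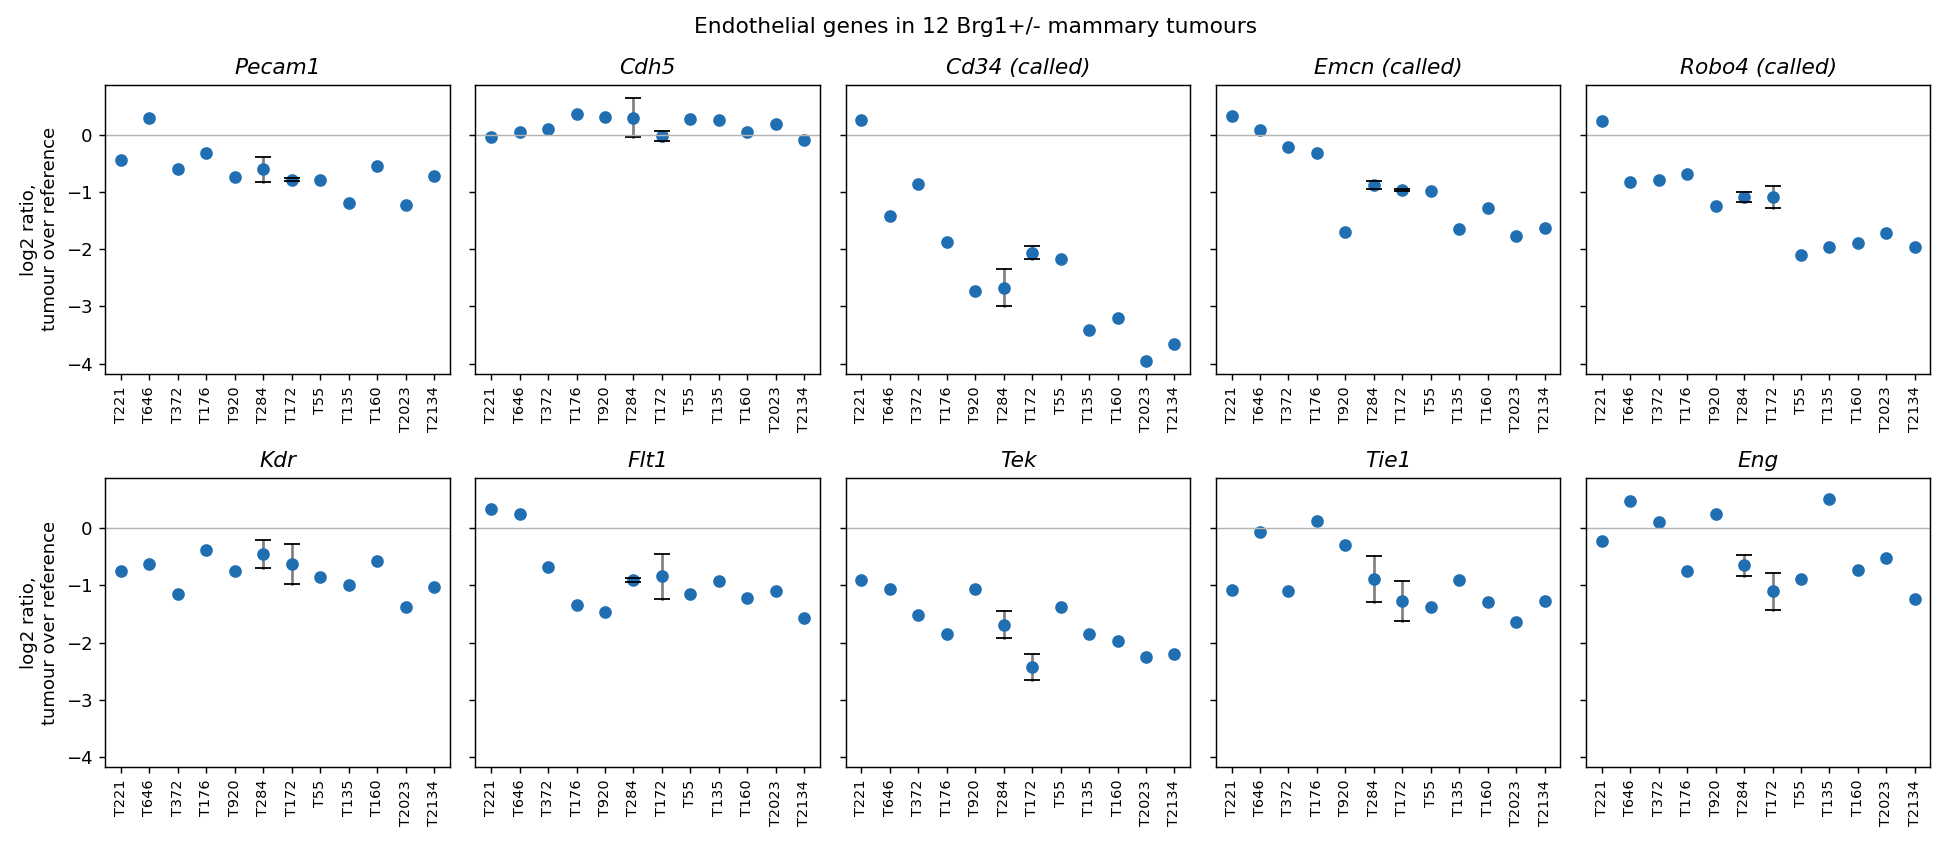
Log2 ratio of tumour over reference (y axis) of the 10 endothelial genes in 12 tumours (x axis, ordered by the mean of the 10 genes). Points are tumours, and for T172 and T284 the point is the mean and the dashes joined by a line are the 2 arrays. Cd34 spans -3.95 to 0.27, whereas Cdh5 stays between -0.08 and 0.36.

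Cd34 had the widest range of the 10, from a tumour slightly above the reference to 1 far below it. Its log2 ratio was 0.27 in T221, -0.87 in T372, -1.42 in T646, -1.87 in T176, -2.06 in T172, -2.17 in T55, -2.67 in T284, -2.72 in T920, -3.21 in T160, -3.42 in T135, -3.66 in T2134 and -3.95 in T2023. The top and bottom tumours thus differed by a factor of 18.6, and T221 alone lay above the reference. The SD over tumours was 1.23 (n = 12) and the moderated SD within a tumour 0.32 (limma adjusted p = 0.00280). The SD exceeded that of 95.3% of all genes. Of the 11 pairs of neighbours in this order, 4 were further apart than 0.45, the SD expected of a difference between 2 single arrays. The order among most neighbours is therefore not resolved, and a step beyond this limit of 1 SD does not by itself resolve it. The 2 arrays gave -1.95 and -2.17 for T172 and -2.99 and -2.35 for T284.

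Emcn, the gene for endomucin, followed nearly the same order. It stood at 0.33 in T221, 0.09 in T646, -0.22 in T372, -0.31 in T176, -0.87 in T284, -0.96 in T172, -0.99 in T55, -1.27 in T160, -1.63 in T2134, -1.65 in T135, -1.70 in T920 and -1.77 in T2023. The largest step, 0.56, lay between T176 and T284, thus between the 4 highest tumours and the other 8. It was the 1 step of 11 larger than the limit of 1 SD, 0.39. The SD over tumours was 0.74 (n = 12; limma adjusted p = 0.0239). The 2 arrays of a tumour lay close together, at -0.98 and -0.94 for T172 and -0.94 and -0.80 for T284.

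Robo4 stood apart in 1 tumour. It was 0.24 in T221 against -0.69 in T176, -0.78 in T372, -0.82 in T646, -1.08 in T284 and in T172, -1.25 in T920, -1.71 in T2023, -1.89 in T160, -1.95 in T2134, -1.96 in T135 and -2.09 in T55. The step from T176 up to T221 was 0.94, and 2 of 11 neighbour steps exceeded their limit of 0.41. The SD over tumours was 0.70 (n = 12; limma adjusted p = 0.0395). Without T221, where 17.6% of all genes were called, Robo4 was not (adjusted p = 0.128), while Cd34 (0.0112) and Emcn (0.0468) were.

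Neither VEGF receptor gene was called, and their highest tumours were not the same. Flt1, VEGFR1, ranged from -1.56 in T2134 over a median of -1.01 to 0.34 in T221, and T646 at 0.24 was the only other tumour above the reference. The step down to the third tumour, T372 at -0.68, was 0.92. Flt1 was not called (SD 0.61; adjusted p = 0.140), and its 2 arrays of T172 were far apart, at -1.24 and -0.45. With either array of T172 left out it was called (adjusted p = 0.0428 without the first, beside 23.8% of all genes, and 0.0468 without the second, beside 23.1%). With 1 array of T172 gone, only T284 informs the spread within a tumour, at -0.87 and -0.95 for Flt1. These calls leave out the pair that lay far apart, so they cannot show that the tumours differ more. Kdr, VEGFR2, lay below the reference in all 12 tumours, with -1.37 in T2023 as the lowest, a median of -0.74 and -0.39 in T176 as the highest. Its SD over tumours, 0.29, was below its moderated SD within a tumour, 0.34 (adjusted p = 0.791), and no neighbouring tumours were further apart than 0.48. The tumours with high Flt1 did not stand out for Kdr, which was -0.75 in T221 and -0.63 in T646. The single Flt1 probe cannot tell the membrane receptor from its soluble splice form.

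The receptors Tek and Tie1 also had different top tumours. Tek, which encodes Tie2, was below the reference in every tumour, from -2.42 in T172 over a median of -1.77 to -0.90 in T221, followed by T646 (-1.06) and T920 (-1.07). Tie1 ranged from -1.64 in T2023 over a median of -1.09 to 0.12 in T176, with T646 at -0.07 and T920 at -0.30 next. A step of 0.60 separated these 3 tumours from the rest, where Tie1 was at most -0.89. T221, the highest for Tek, stood at -1.08 for Tie1. Neither gene was called (SD 0.50 and adjusted p = 0.173 for Tek, SD 0.55 and adjusted p = 0.283 for Tie1). Tie1 had the largest difference between the 2 arrays of T284 among the 10 genes, at -0.49 on the first and -1.30 on the second, and in T172 it was -0.92 and -1.62.

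The co-receptor gene Eng ranged from -1.24 in T2134 over a median of -0.58 to 0.51 in T135. It lay above the reference in T135, T646 (0.47), T920 (0.25) and T372 (0.11), and was not called (SD 0.61; limma adjusted p = 0.0991). With quantile normalization it was called (adjusted p = 0.0478, beside 23.9% of all genes), as it was without the first array of T172 (0.0338). Without that array only T284 informs the spread within a tumour, at -0.47 and -0.83 for Eng, against -0.79 and -1.42 in T172. T135, the top tumour for Eng, was among the 4 lowest for Cd34.

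The adhesion genes Cdh5 and Pecam1 were not called. Cdh5 had the smallest SD of the 10 and stayed near the reference in all tumours, from -0.08 in T2134 over a median of 0.15 to 0.36 in T176, and 98.3% of all genes had a larger or equal SD than its 0.16. The 2 arrays of T284 alone, 0.65 and -0.04, spanned more than the range over tumour means, and Cdh5 was not called (adjusted p = 0.991). Whether its probe measured signal well above background is not given by these ratios. Pecam1 ranged from -1.22 in T2023 over a median of -0.66 to 0.30 in T646. T646 was the only tumour above the reference and lay 0.61 above the next, T176 at -0.31, but Pecam1 was not called (SD 0.40; adjusted p = 0.395).

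**Figure D2:**
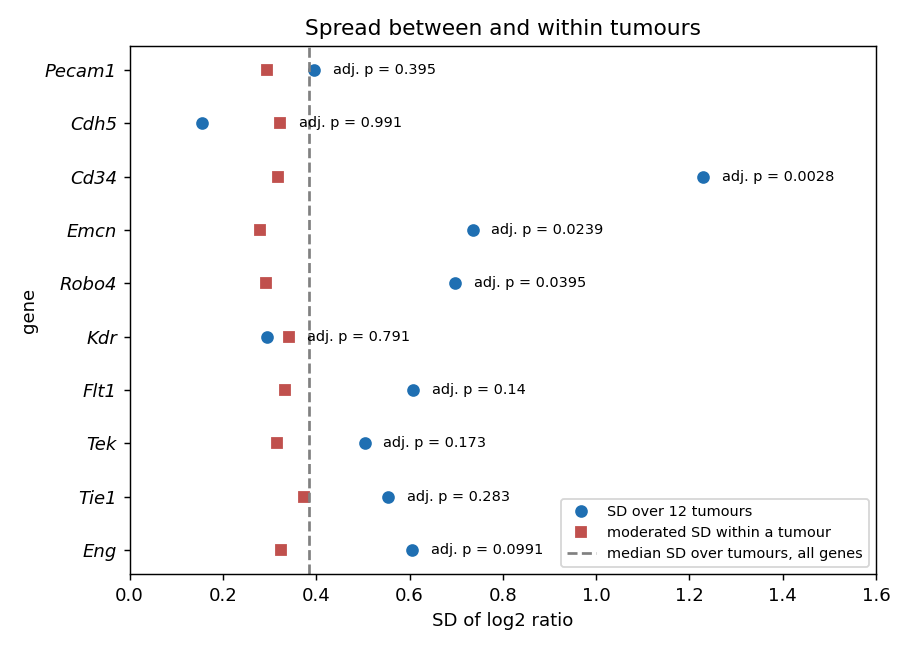
SD of the log2 ratio (x axis) over 12 tumours (circles) and the moderated SD within a tumour (squares) for each gene (y axis), with the F-test's adjusted p and a dashed line at the median SD over tumours of all genes, 0.39. Cd34, Emcn and Robo4 lie furthest to the right, and for Cdh5 and Kdr the spread over tumours is smaller than that within a tumour.

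Tumours T221 and T646 had the highest endothelial ratios and T2134 and T2023 the lowest. With each gene's mean over tumours removed, the mean over the 10 genes was 0.74 in T221, 0.68 in T646, 0.30 in T372 and 0.26 in T176. The lowest means were -0.57 in both T2023 and T2134. The lead of T221 over T646 rested on Cd34, which deviated by 2.58 in T221 and 0.89 in T646. Cdh5 and Tie1 lay below their own mean in T221, at -0.18 and -0.15. In T221, 8 of 10 genes lay above their own mean and in T646 9 of 10, beside 49.2% and 49.1% of all genes. In T2134 none of the 10 did, and in T2023 1 did, Cdh5, beside 47.9% and 48.6% of all genes. T221 was the highest tumour for 5 genes, Cd34, Emcn, Robo4, Flt1 and Tek, and T176 for 3, Cdh5, Kdr and Tie1. T2023 was the lowest for 5 and T2134 for 3.

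Set against the mean of the other 11 tumours gene by gene, no endothelial gene was called in any tumour by limma's moderated test, where 0.395% of all 202263 gene and tumour combinations were. At an unadjusted p under 0.05, 7 of the 120 endothelial combinations passed, beside 5.65% of all combinations, so the share was near that of all genes. Cd34 was higher in T221 by 2.82 ± 0.91 (SE, 1 tumour against 11; adjusted p = 0.413) and Robo4 by 1.64 ± 0.53 (adjusted p = 0.409). Pecam1 was higher in T646 by 1.02 ± 0.31 (adjusted p = 0.413), and Tie1 in T176 by 1.14 ± 0.46 (adjusted p = 0.279). Kdr was lower in T2023, by -0.63 ± 0.28 (adjusted p = 0.884). In this test the lone tumour is assumed to vary like the others.

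Cd34 and Emcn had the highest correlation over tumours among the 10 genes. Of the 45 pairs of endothelial genes, 39 had a positive Pearson's r over 12 tumours, with a median of 0.42, beside a median of 0.00015 over all pairs of genes. In all, 6 pairs passed a permutation test of 100000 resamples (two-sided, Benjamini-Hochberg adjusted over 45 pairs), all of them positive and 5 of them among Cd34, Emcn, Robo4 and Flt1. Cd34 and Emcn had r = 0.922 and Spearman's rho = 0.923 (permutation p = 1e-05 for r, the smallest that 100000 resamples can give, adjusted p = 0.00045; p = 9e-05 for rho, adjusted p = 0.00405). Cd34 with Robo4 had r = 0.858 (permutation p = 0.00036, adjusted p = 0.0081; rho = 0.783, p = 0.00373, adjusted p = 0.0580). Emcn had r = 0.828 with Robo4 (permutation adjusted p = 0.0120; rho = 0.755, adjusted p = 0.0705), 0.778 with Flt1 (adjusted p = 0.0184; rho = 0.678, adjusted p = 0.132) and 0.759 with Pecam1 (adjusted p = 0.0184; rho = 0.783, adjusted p = 0.0580). Cd34 with Flt1 had r = 0.743 (permutation adjusted p = 0.0416; rho = 0.657, adjusted p = 0.132). That pair was not called with first arrays only (adjusted p = 0.0792) or with quantile normalization (adjusted p = 0.0706). Robo4 with Flt1 was not called (r = 0.687, permutation adjusted p = 0.0769). At or above the r of Cd34 with Flt1 lay 1.03% of all gene pairs. By rho, 1 pair was called, Cd34 with Emcn.

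Part of this agreement rests on T221. With that tumour left out, r was 0.896 for Cd34 with Emcn (permutation adjusted p = 0.00990) and 0.810 for Pecam1 with Emcn (adjusted p = 0.0178), and these were the 2 pairs still called. Without it Cd34 with Robo4 was not called (r = 0.743, permutation adjusted p = 0.129), nor were Emcn with Robo4 (r = 0.750, adjusted p = 0.129), Emcn with Flt1 (r = 0.672, adjusted p = 0.129) and Cd34 with Flt1 (r = 0.557, adjusted p = 0.217). Without T646, Pecam1 with Emcn was not called (r = 0.726, permutation adjusted p = 0.0888), nor were the 2 pairs with Flt1 (adjusted p = 0.0838 each). Without the 2 tumours farthest from the median of the first gene of a pair, Cd34 with Emcn kept r = 0.885 (n = 10; permutation adjusted p = 0.0274) and was the only pair called. There r was 0.695 for Cd34 with Robo4, 0.713 for Emcn with Robo4, 0.681 for Pecam1 with Emcn, 0.542 for Cd34 with Flt1 and 0.437 for Emcn with Flt1.

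None of the 9 pairs that held Cdh5 was called. Their r ran from -0.38 with Flt1 to 0.40 with Tie1, and 5 of 9 were negative. The SD of Cdh5 over tumours, 0.16, was below its moderated SD within a tumour, 0.32. Its r can therefore not tell whether it follows the other genes, and the same holds for Kdr (0.29 and 0.34). Against the mean of the other 9 genes r was -0.08 for Cdh5, 0.36 for Kdr, 0.37 for Eng and 0.50 for Tie1, but 0.87 for Emcn, 0.82 for Cd34, 0.81 for Robo4, 0.73 for Flt1, 0.72 for Tek and 0.71 for Pecam1. These values are descriptions over 12 tumours measured on the same arrays.

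**Figure D3:**
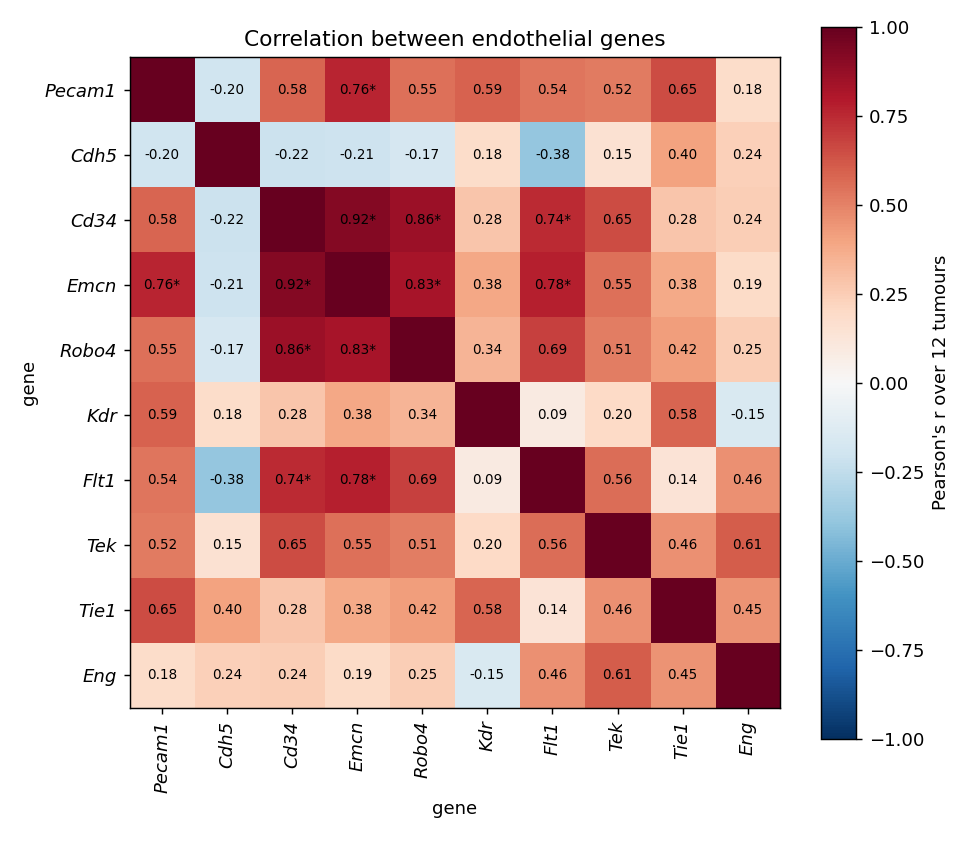
Pearson's r over 12 tumours for each pair of the 10 endothelial genes (both axes), coloured from blue (-1) to red (1), with an asterisk where the permutation test was passed after adjustment over 45 pairs. The 6 marked pairs join Cd34, Emcn, Robo4, Flt1 and Pecam1, and the row of Cdh5 holds the most negative value, -0.38.

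The ligand gene Vegfa had a negative r with each of the 10 endothelial genes over tumours, and 1 relation was called. The median r of all genes with Vegfa was 0.008. Because 39 of 45 pairs of the 10 genes had a positive r, the 10 signs are not separate observations. Vegfa, called between tumours (limma adjusted p = 0.0113), was highest in T2023 (2.46) and T2134 (2.01), the 2 tumours with the lowest endothelial means, and lowest in T176 (-0.68) and T646 (-0.40). T372 had the third highest Vegfa (1.77) and also the third highest endothelial mean. The called relation, after adjustment over the 10, was that with Tie1. Tie1 itself was not called between tumours (limma adjusted p = 0.283). Its SD over tumours was 0.55, against 0.54 within a tumour before moderation and 0.37 after. Tie1 and Vegfa had r = -0.804 (permutation p = 0.0011, adjusted p = 0.0110) and rho = -0.762 (permutation p = 0.00574, adjusted p = 0.0574) over 12 tumours. Of all genes, 0.144% had an r with Vegfa at or below that of Tie1. Without the 2 tumours farthest from the median of Tie1, r was -0.675 (n = 10; permutation p = 0.0218, adjusted p = 0.215). Over the 9 tumours other than T176, T646 and T920, the highest for Tie1, r was -0.640 (n = 9; unadjusted permutation p = 0.0639). That split was chosen after Tie1 was seen and narrows its range, so it cannot decide whether the relation holds within the 9. The relation also lost its call without T2023 (permutation adjusted p = 0.0800) and with only the first arrays of T172 and T284 (r = -0.720, adjusted p = 0.100).

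For the receptors of Vegfa itself, r was -0.591 for Kdr (permutation p = 0.0441, adjusted p = 0.147; rho = -0.524, adjusted p = 0.211) and -0.259 for Flt1 (permutation p = 0.417, adjusted p = 0.417; rho = -0.028, adjusted p = 0.938). Tek had r = -0.634 (permutation p = 0.0304, adjusted p = 0.147; rho = -0.559, adjusted p = 0.211), and without T176 it was called (r = -0.765, adjusted p = 0.0497). For Kdr the SD over tumours, 0.29, was below the moderated SD within a tumour, 0.34. Its r therefore cannot tell whether Kdr follows Vegfa. With the 2 farthest tumours left out, r was -0.253 for Kdr, 0.198 for Flt1 and -0.576 for Tek. With first arrays only it was -0.328 for Kdr, -0.314 for Flt1 and -0.643 for Tek.

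**Figure D4:**
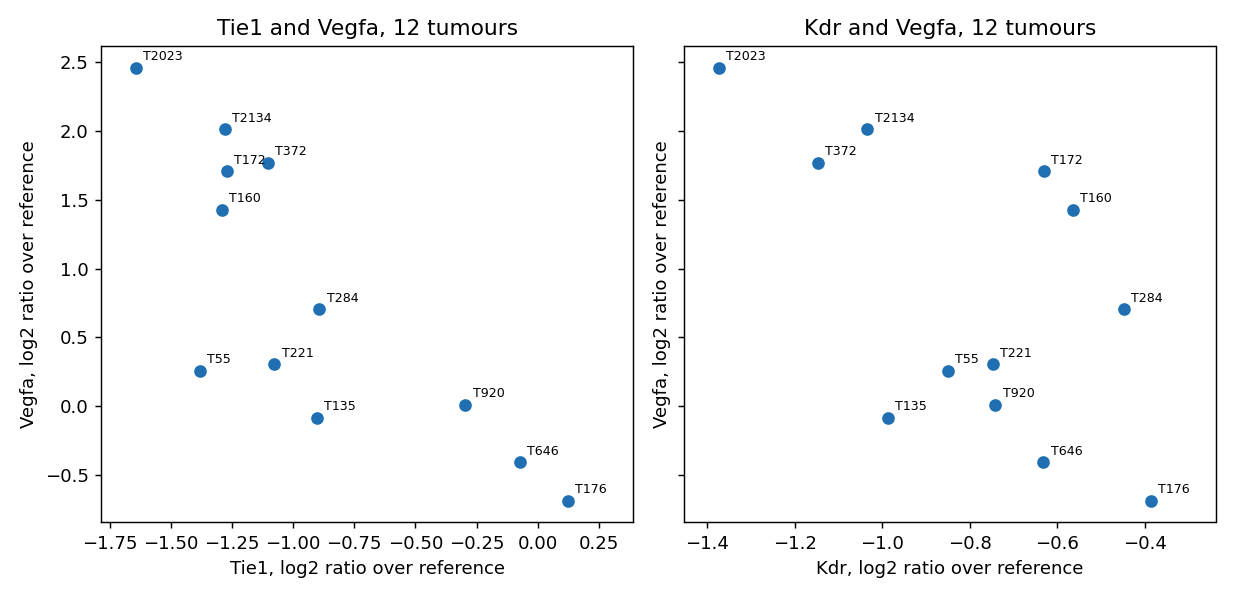
Vegfa (y axis) against Tie1 (left) and Kdr (right) on the x axes, all as log2 ratios of tumour over reference, 1 point for each of 12 tumours. T2023 has the highest Vegfa (2.46) with the lowest Tie1 (-1.64) and Kdr (-1.37), and T176 has the lowest Vegfa (-0.68) with the highest Tie1 (0.12) and Kdr (-0.39). Neither Tie1 nor Kdr was called between tumours, and the spread of Kdr over tumours is smaller than that within a tumour.

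Many other endothelial genes were also high in T221. Of 33 further measured endothelial genes, 11 were called by the F-test, beside 18.3% of all genes. Of these 11, 7 were highest in T221, as were 14.1% of the 3062 called genes with a value in every tumour. In T221 28 of the 33 lay above their own mean, in T176 25 and in T646 24, against 5 in T160 and 8 in T2134, beside 46.8% to 49.2% of all genes in these 5 tumours. The order was not that of the 10 genes throughout, since T284 also had 8 of the 33 above their mean, and T2023 had 11, more than T172, T55 or T135. Thbd, thrombomodulin, the cofactor for protein C activation, ranged from -3.26 in T160 to 1.03 in T221 (limma adjusted p = 0.00299). Procr, the endothelial protein C receptor, which epithelial progenitors also express, reached 2.27 in T221 and 1.64 in T2134 (adjusted p = 0.00251). Sox7, an endothelial transcription factor, ranged from -2.22 in T284 to 1.25 in T221 (adjusted p = 0.00355). The endothelial tight junction gene Cldn5 had a different top, -0.82 in T646, against -3.53 in T284 (adjusted p = 0.00582).

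Genes that mark arteries, veins and lymphatics were read against the 18.3% of all genes called. Of 8 arterial genes 2 were called, the Notch ligand gene Dll4, from -1.36 in T2023 to 1.23 in T221 (adjusted p = 0.0363), and the Notch target Hey1, highest in T284 (4.13) and T172 (3.20; adjusted p = 0.000128). Of 4 venous genes 1 was called, Nr2f2, from -3.15 in T2134 to -0.49 in T172 (adjusted p = 0.0349). None of 5 measured lymphatic genes was called by limma, and 1 passed at an unadjusted p under 0.05. Among 20 vascular ligands and co-receptors 9 were called, beside the same 18.3% of all genes. Angpt2, the ligand that opposes Tie2 activation, was highest in T176 (2.43) and T221 (1.92) and lowest in T646 (-0.80; adjusted p = 0.00449). The lymphangiogenic ligand gene Vegfc ranged from -2.78 in T172 to -0.26 in T135 (adjusted p = 0.00310). Slit2, lowest in T172 at -3.36, was highest in T135 (adjusted p = 0.000791), and Slit3 ranged from -2.08 in T2134 to 1.42 in T646 (adjusted p = 0.00268).

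**Figure D5:**
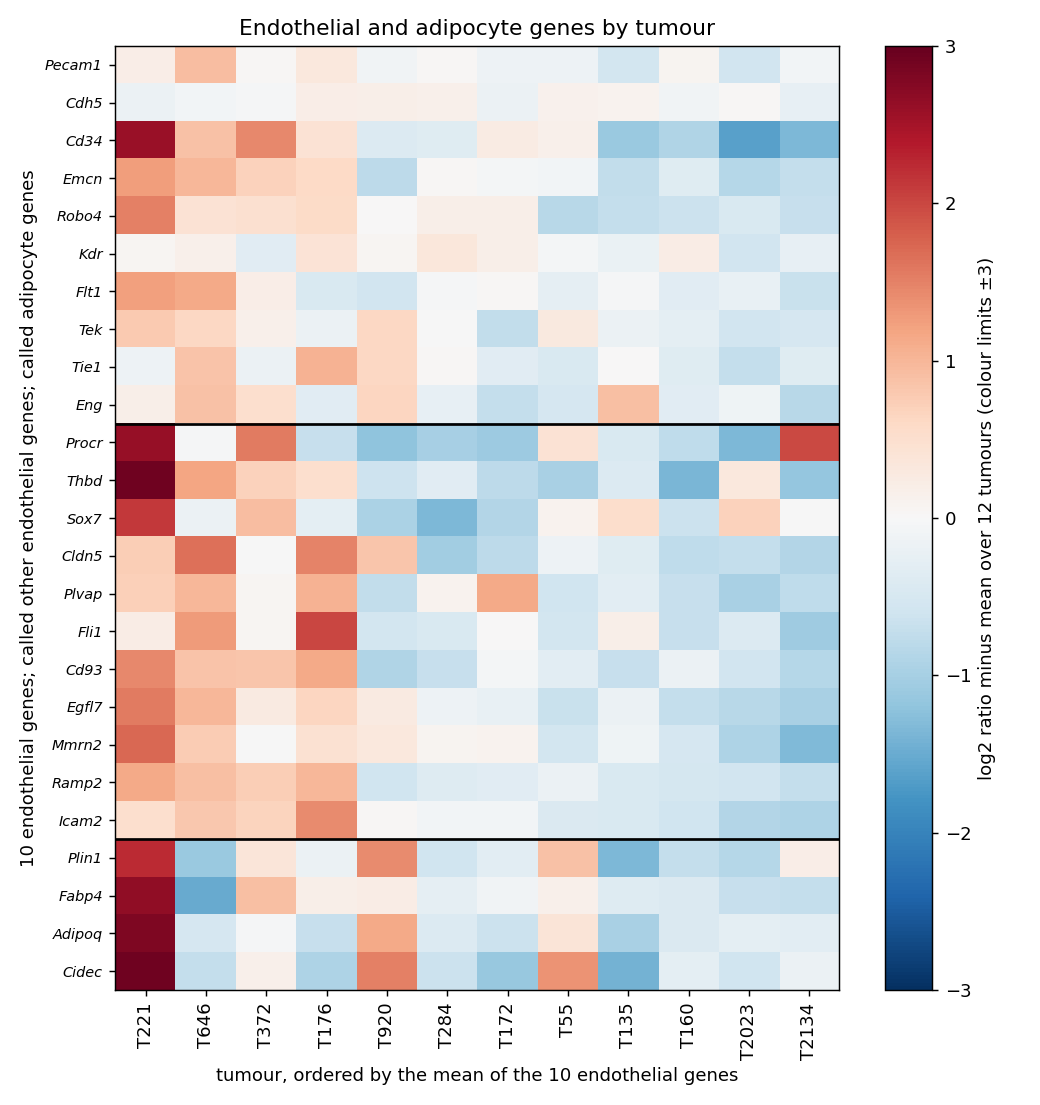
Deviation of each log2 ratio from that gene's average across 12 tumours (colour, limits ±3) for the 10 endothelial genes, the 11 called other endothelial genes and the 4 called adipocyte genes (y axis, separated by lines), with tumours ordered by the mean of the 10 endothelial genes (x axis). T221 is high in all 3 blocks, while T646 is high for most endothelial genes and low for the adipocyte genes.

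Markers of other cells moved with these tumours to different degrees. In T221, where Cd34, Emcn and Robo4 were highest, 5 of 6 adipocyte genes lay above their own mean. The same count held in T372, T920 and T55, whose endothelial means were 0.30, 0.02 and -0.18. The average over the 6 was 1.92 in T221, against -0.81 to 0.70 in the other tumours. Plin1 was -2.22 in T221 against a median of -4.69 over the 12 tumours, Adipoq -1.38 against -4.54, Cidec -1.79 against -5.15 and Fabp4, which capillary endothelium also expresses, -0.47 against -3.32 (limma adjusted p = 0.00314, 0.0115, 0.0207 and 0.00426 between tumours). Of 10 leukocyte and platelet genes 8 lay above their mean in T221, as 8 did in T372. Their mean was 0.83 in T221 against -0.56 to 0.43 elsewhere. Without Ppbp, left out after its value was seen, the mean was 0.36 in T221, 0.40 in T646 and 0.36 in T372. That choice was made on the same values. It shows only that the lead of T221 in the mean of the 10 rested on Ppbp. Ppbp, a platelet chemokine gene, stood at 2.12 in T221 against -4.86 to -1.11 elsewhere (adjusted p = 0.000524), and Pf4, also of platelets, was -1.42 there and highest in T2023 at -0.80. Of 11 pericyte and mural genes 7 lay above their mean in T221, with an average of 0.27 over the 11. The count was 10 in T646, 9 in T176 and 7 in T135. The epithelial genes Epcam, Krt8 and Krt18 were second lowest in T221, at 0.70, -0.45 and 1.135, above T176 only. The epithelial markers Krt5 and Krt14 went the other way there, at 0.89 and 2.17 against medians of -1.43 and 0.53.

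In T646 this background was different. There 1 of 6 adipocyte genes lay above its mean, with an average of -0.66, while 10 of 11 pericyte and mural genes did, with an average of 0.60. Unlike in T221, Epcam and Krt18 were at their highest in T646, at 3.18 and 2.965. Krt8 was 2.265 there against a median of 2.08. Krt5 and Krt14 were low in T646, at -3.12 and -2.04 against medians of -1.43 and 0.53. Pdgfrb, the pericyte receptor for PDGF-B, which fibroblasts also express, was 1.75 in T646 against -2.06 in T2134 (adjusted p = 0.00363), and Ptprc, the pan-leukocyte gene, was 2.12 in T646 and 1.77 in T221 (adjusted p = 0.0993). Called members of the pericyte list included Cspg4, highest in T176 at 1.52 (adjusted p = 0.00310), and the vascular potassium channel genes Kcnj8 and Abcc9, highest in T172 at 0.11 and -0.34 (adjusted p = 0.0234 and 0.0326). Called leukocyte and platelet genes also included Cd68, highest in T176 at 2.81 (adjusted p = 0.0199), and Itga2b, highest in T172 at -0.66 (adjusted p = 0.0369). The part that these cells have in the endothelial ratios was not tested.

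The genes whose ratios most resembled the mean of the 10 endothelial genes over 12 tumours, among 16608 others, were Nelfe (r = 0.97), Egfl7 (0.96), Chst7 (0.93), Adcy4 (0.93), Tnfsf12 (0.92) and Mmrn2 (0.92). Egfl7 encodes a secreted endothelial protein and Mmrn2 an extracellular matrix protein of endothelium. Egfl7 ranged from -2.33 in T2134 to 0.19 in T221 (limma adjusted p = 0.0233) and Mmrn2 from -1.96 in T2134 to 1.08 in T221 (adjusted p = 0.0261). Nelfe, a subunit of the negative elongation factor of RNA polymerase II, ranged from -0.26 in T2134 to 1.58 in T646 and was not called between tumours. The values of r are the highest of many and carry no test.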

How the data were processed

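Tumour RNA came from a Qiagen RNeasy kit, per the labels. It was labelled with Cy5 and a common mouse reference with Cy3 on each of 14 arrays. The deposited table holds a value per probe and array, read as the log2 ratio of Cy5 over Cy3. The base was inferred from the range, -9.19 to 7.42, and the direction from the dyes. How background was corrected and arrays normalized is not stated in the labels. Arrays correlated between 0.463 and 0.898, so none ran in the opposite direction. The ratios carry no signal level, so dim probes cannot be told apart, and the number of arrays limits precision. Of all values 0.172% were missing.

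Of 22575 probes, 18658 had 1 symbol in the platform annotation, 30 several and 3887 none. Symbols were updated through the RefSeq gene table of GRCm38.p6 (18445 by Entrez identifier, 24 by accession, 189 kept), and probes of a gene were averaged. A gene was tested if at least 12 of 14 arrays had a value and 1 of the repeated tumours was complete, which held for 16877 of 16879.

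Tumours were compared with a moderated F-test (limma 3.58.1, R 4.3.3; factor of 12 tumours over 14 arrays) and single tumours against the remaining 11, also in limma, with p-values adjusted after Benjamini-Hochberg over all genes. The prior had an SD of 0.313 and 7.22 degrees of freedom. Correlations used the 12 tumours with permutation tests (Python 3.11.15, numpy 2.4.6). The fits were tested on simulated data. Alternatives covered the gene filter, quantile normalization, 1 probe per gene, a robust prior, a replicate block and leaving out arrays or tumours.

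The genes and lists were chosen with earlier results of these data known. Genes named are the 10 endothelial genes, up to 4 called genes of each companion list with the smallest adjusted p, the 6 with the highest r to the mean of the 10, Smarca4 and Vegfa. Ptprc and the epithelial markers are named beyond this rule, as markers of other cells.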

Additional observations from a re-analysis of the deposited data

How the results depend on the processing

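Cd34 and Emcn were called under every alternative of the F-test, with adjusted p of at most 0.0112 and 0.0468, except that with a threshold of 0.01 in place of 0.05 only Cd34 was called (1 of 10). Leaving out single arrays gave 2 to 5 called genes of 10. The 2 remained without T221, which ended the call of Robo4, and the 5 came without the first array of T172, where 23.8% of all genes were called. Without an array of T172, only T284 still has 2 arrays to inform the spread within a tumour. With the replicate block, which takes the second arrays of T172 and T284 as sharing a shift, 7 genes were called (Tek, Tie1, Flt1 and Eng besides the 3), but so were 42.4% of all genes. The differences of second minus first array correlated between T172 and T284 at r = 0.325 over 16784 genes. The second arrays are those labelled as a biorep. The labels do not say what these arrays share, so the shift in the block is an assumption. Of 190 single-gene alternatives, 181 kept their side of the threshold, 8 gained a call and 1 lost it. No gene was called in 1 tumour against the other 11 under any alternative, with 5 to 8 combinations at an unadjusted p under 0.05 (limma).

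The 6 correlated pairs became 1 when the 2 farthest tumours were left out, and ranged from 2 (without T221) over 3 (without T646) to 10 (without T920) when tumours were left out singly. Of the relations with Vegfa, whose alternatives were chosen after seeing the data, 0 were called with first arrays only and 0 without the 2 farthest tumours, and 0 (without T2023) to 2 (without T176) when tumours were left out singly. The causes were not tested.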
